A study of Mus musculus with 6 samples.

Results

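The NADPH oxidase genes and the inducible nitric oxide synthase gene Nos2 were followed in RNA sequencing libraries of colon tissue from BALB/c mice, an inbred laboratory strain. The members were the rows of the deposited expression table with 1 of 10 gene symbols: Duox2, Duoxa2, Nox1, Noxo1, Noxa1, Nox4, Cybb, Cyba, Ncf1 and Nos2. All 10 were among the 30777 genes of the table, and all 10 were expressed highly enough to be among the 20101 genes tested. There were 6 libraries. The treatment behind 3 of them was 5-fluorouracil (5-Fu), a cytotoxic antimetabolite that harms the dividing cells of the gut lining. Behind the remaining 3 it was 5-fluorouracil with berberine, an alkaloid of plants (5-Fu+BBR, also called the berberine libraries). Every animal had thus received 5-fluorouracil, and neither untreated colon nor berberine alone was analysed here. The sources used here give no dose, time, age or sex. Whether each sample is a separate animal is not stated in the labels, and p-values then measure only the spread between these samples, which may be technical.

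NADPH oxidases are membrane enzymes that pass electrons from NADPH to oxygen and so make superoxide or hydrogen peroxide. In the colon, epithelial cells use NOX1, with its organizer NOXO1 and activator NOXA1, and DUOX2, which needs the maturation factor DUOXA2 to leave the endoplasmic reticulum and releases hydrogen peroxide towards the lumen. Phagocytes use the related enzyme encoded by Cybb (gp91phox, also called NOX2), which is held in the membrane by the p22phox subunit encoded by Cyba and switched on by cytosolic subunits such as p47phox, encoded by Ncf1. The p22phox subunit also partners NOX1 and NOX4. Nos2 encodes an enzyme that makes nitric oxide from arginine and is induced in epithelium and macrophages by cytokines and microbial products.

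The libraries held between 53824752 and 63831168 estimated counts. All 12 colon epithelium markers looked at were detected, and Epcam was between 1683 and 2159 CPM (counts relative to the library total, scaled with TMM). Transcripts of 10 kidney genes summed to between 19.2 and 21.7 CPM in the libraries of 5-Fu and to 21.1 CPM in 5-Fu+BBR replicate 1, but to 185 and 179 CPM in 5-Fu+BBR replicates 2 and 3. These last 2 libraries therefore stand apart, and several results that rest on them are also given without them. In bulk tissue, fewer cells of a type and less RNA per cell cannot be told apart.

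Of the 10 members, 0 passed an adjusted p of 0.05 by edgeR's quasi-likelihood test, against 0.0746% of all genes tested (0.0597% higher and 0.0149% lower with berberine). At an unadjusted p under 0.05 there were 3, Cybb, Ncf1 and Nox4, all higher in 5-Fu+BBR, where 15.6% of all genes tested had such a p and 9.48% had it and were higher. The libraries of the groups did not overlap for 2 members, Cybb and Ncf1, both higher, against 21.9% of all genes in either direction and 12.3% higher. DESeq2, which called 6.35% of the genes it tested (4.55% as higher), called the same 2 members, and limma-voom called 0. The median log2 fold change of the members, 5-Fu+BBR minus 5-Fu, was -0.13, and that of all genes tested was 0.0051. It was above 0 for 4 of the 10 members and for 50.7% of all genes tested. Cybb and Ncf1 were thus higher in every library with berberine, while the groups overlapped for the other 8 members, the phagocyte subunit gene Cyba and the 5 epithelial oxidase genes among them.

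**Figure D1:**
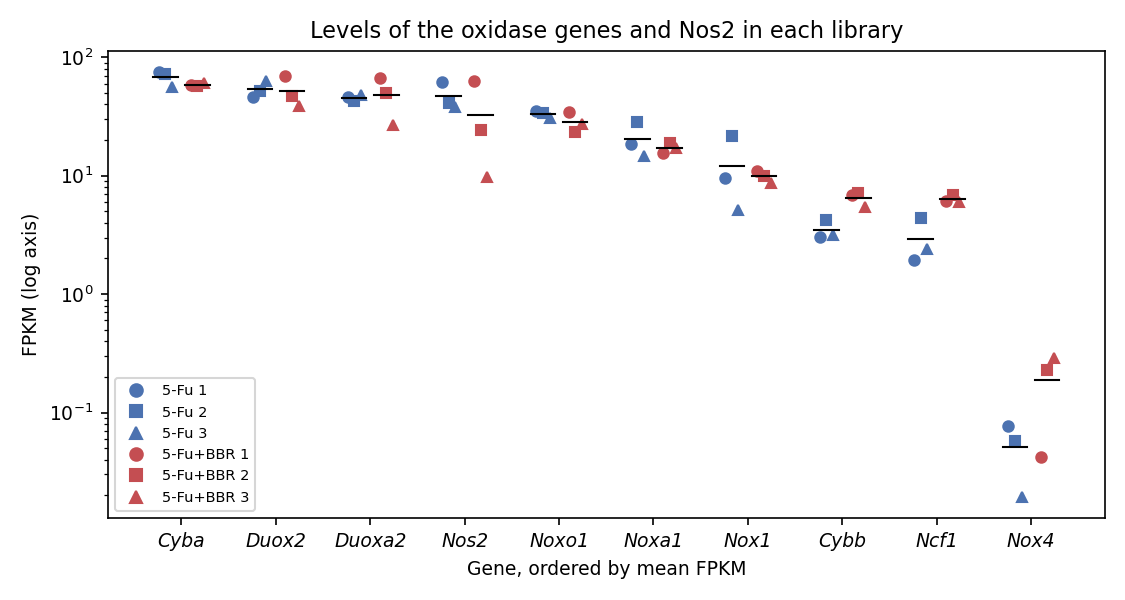
FPKM (log axis) of each member in the 6 libraries, with genes in order of their mean, points for libraries and black lines for group means. Cyba and Duox2 had the highest means and Nox4 the lowest, and the groups separate for Cybb and Ncf1.

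Levels of different genes were compared in FPKM, which is scaled to transcript length. Averaged over the 6 libraries, Cyba was the most abundant member at 63.4 ± 8.27 FPKM (SD, n = 6). Duox2 followed at 53.0 ± 11.5, Duoxa2 at 46.7 ± 12.7, Nos2 at 39.7 ± 20.9 and Noxo1 at 30.9 ± 4.63 FPKM. Each of these first 4 neighbours in the order overlapped the next in its range over libraries, so their order is not firm. Noxa1 at 18.8 ± 4.92 FPKM lay above Nox1 at 11.0 ± 5.64 FPKM in 6 of 6 libraries. The catalytic subunit of the epithelial NOX1 complex was thus less abundant than both of its cytosolic partners in every library. Cybb at 4.97 ± 1.80 and Ncf1 at 4.62 ± 2.07 FPKM were close to each other, with Cybb the higher in 4 of 6 libraries. Nox4, an oxidase active without cytosolic subunits and abundant in kidney, was at 0.12 ± 0.11 FPKM, and the mean of Cybb was 41.5 times as high.

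Duox2 and Duoxa2 lie head to head on chromosome 2, with Duox2 (ENSMUSG00000068452, 122279247 to 122298449 of GRCm38, minus strand) and Duoxa2 (ENSMUSG00000027225, 122298900 to 122302885, plus strand) separated by 450 bases. The stretch before the Duoxa2 start is shown because it lies in this shared gap between an enzyme and its maturation factor. It is taken from RefSeq on GRCm38.p6 (chr2:122298650-122298899, plus strand), and capitals mark the letters TATAAA, found in 13% of all promoter windows of the same length on either strand.
Duoxa2: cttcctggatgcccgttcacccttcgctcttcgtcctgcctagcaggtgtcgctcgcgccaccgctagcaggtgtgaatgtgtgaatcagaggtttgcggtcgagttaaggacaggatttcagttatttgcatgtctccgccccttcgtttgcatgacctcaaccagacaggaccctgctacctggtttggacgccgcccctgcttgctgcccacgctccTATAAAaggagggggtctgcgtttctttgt

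Duox2 was at 371, 396 and 547 CPM with 5-Fu alone (replicates 1 to 3, in that order throughout) and at 581, 370.5 and 309 CPM with berberine added. The highest and the lowest library both belonged to 5-Fu+BBR, and the groups overlapped (log2 fold change -0.06 ± 0.26 SE, adjusted p = 0.938). Duoxa2 was at 86.6, 76.1 and 97.2 CPM with 5-Fu alone and at 130.0, 92.3 and 50.1 CPM with berberine, in the same order. As for Duox2, 5-Fu+BBR replicate 1 was the highest of the 6 libraries and replicate 3 the lowest (log2 fold change 0.07 ± 0.32, adjusted p = 0.945). Neither sign is firm: without 5-Fu+BBR replicate 1 the log2 fold change of Duoxa2 was -0.28, and that of Duox2 was 0.12 without replicate 3. The ratio of Duoxa2 to Duox2 in FPKM stayed between 0.689 and 1.06 over the 6 libraries, a 1.54-fold range, while Duoxa2 itself ranged 2.48-fold. Enzyme and maturation factor were therefore of like abundance per length in every library, with or without berberine.

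Nox1 (ENSMUSG00000031257, chromosome X, 134086421 to 134221956, minus strand) was at 37.3, 80.3 and 21.6 CPM in the libraries of 5-Fu and at 44.8, 38.1 and 33.6 CPM in those of 5-Fu+BBR. The 3 libraries of 5-Fu+BBR lay within the range of 5-Fu, which held both the highest and the lowest of the 6 values, 4.28-fold apart in FPKM (log2 fold change -0.26 ± 0.46, adjusted p = 0.837). One library set the sign, since without 5-Fu replicate 2 the log2 fold change was 0.41. Noxa1, the activator of NOX1 (ENSMUSG00000036805, chromosome 2, 25085667 to 25095149, minus strand), was highest in the same library, at 35.2, 51.0 and 30.3 CPM in 5-Fu against 30.8, 34.98 and 32.4 CPM in 5-Fu+BBR. Its log2 fold change was -0.25 ± 0.19 (adjusted p = 0.577) and 0.0041 without 5-Fu replicate 2. That library also had the highest sum of 6 fibroblast genes (2019 CPM, against 458 to 1868 CPM in the others) and the lowest Slc26a3 and Car4 of surface colonocytes (229 and 102 CPM). The part of these differences in Nox1 was not tested.

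Noxo1, the organizer of NOX1 (ENSMUSG00000019320, chromosome 17, 24696234 to 24700529, plus strand), did not follow Nox1. It was steady in 5-Fu at 125, 113 and 119 CPM and was at 129, 81.3 and 97.9 CPM in 5-Fu+BBR, where replicate 1 lay above and replicates 2 and 3, those with high kidney transcripts, below every library of 5-Fu. The groups overlapped (log2 fold change -0.21 ± 0.16, adjusted p = 0.583), and with 5-Fu+BBR replicate 1 alone the log2 fold change was 0.10. Noxo1 exceeded Nox1 in FPKM by 1.55-fold in 5-Fu replicate 2 and by 6.05-fold in 5-Fu replicate 3, the extremes of the 6 libraries. Within 5-Fu+BBR this ratio was narrower, at 3.16, 2.34 and 3.19. Of the 5 epithelial oxidase members, 0 had an unadjusted p under 0.05, against 15.6% of all genes tested.

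Nos2 (ENSMUSG00000020826, chromosome 11, 78920787 to 78960254, plus strand) varied most among the abundant members. It was at 321, 205 and 217 CPM with 5-Fu alone and at 347, 124 and 50.8 CPM with berberine. Replicate 1 of 5-Fu+BBR was the highest of all 6 libraries, and replicates 2 and 3 lay below every library of 5-Fu. The mean was 248 ± 63.9 against 174 ± 154 CPM (SD, n = 3 per group), a difference smaller than the spread within 5-Fu+BBR (log2 fold change -0.51 ± 0.68, adjusted p = 0.771). With 5-Fu+BBR replicate 1 alone it was 0.47, and without that library it was -1.50 (adjusted p = 0.21 by edgeR). The ratio of Nos2 to Duox2 in FPKM ran from 1.32 in 5-Fu replicate 1 to 0.251 in 5-Fu+BBR replicate 3, so the pair did not keep a fixed proportion. The libraries with low Nos2 in 5-Fu+BBR were those with high kidney transcripts, whose part in the result was not tested. Epcam differed little across the libraries, and Nos2 over Epcam in CPM still spanned 6.62-fold.

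Genes that intestinal epithelium makes in response to microbes and inflammatory cytokines were examined beside Nos2 and Duox2. Of 10 such genes, all tested, 0 passed, 0 were higher and 4 were lower at an unadjusted p under 0.05, against 6.08% of all genes tested that were lower (list median log2 fold change -1.34). Saa3, an acute phase apolipoprotein, was at 58.2, 81.4 and 36.8 CPM with 5-Fu alone and at 11.8, 3.17 and 2.35 CPM with berberine (log2 fold change -3.35 ± 0.72, adjusted p = 0.151). Lcn2, a protein that binds bacterial iron carriers, was at 9.76, 22.2 and 11.5 CPM against 3.62, 1.32 and 0.271 CPM (log2 fold change -3.05 ± 0.88, adjusted p = 0.211). Saa2, of the same family as Saa3 and similar in sequence to Saa1, was at 1.53, 1.70 and 3.84 CPM against 1.18, 0.344 and 0.595 CPM. Saa1 itself was far more abundant, at 1467, 570 and 2848 CPM against 852, 647 and 981 CPM. Its groups overlapped (log2 fold change -0.98 ± 0.55, adjusted p = 0.454), and the part of Saa1 reads in the level of Saa2 was not tested. For Saa3, Lcn2 and Saa2, 3 of the 10 genes, every library of 5-Fu+BBR lay below every library of 5-Fu, against 9.68% of all genes tested. Such a separation held for neither Nos2 nor Duox2. In 5-Fu+BBR replicate 1, Nos2 and Duox2 were at their highest while Saa3 and Lcn2 were below the range of 5-Fu. Reg3b and Reg3g, which encode antibacterial lectins similar in sequence and were named after their values were seen, were like Nos2 in being highest in that library. Reg3b was at 38.1, 49.5 and 20.3 CPM with 5-Fu alone and at 59.8, 2.39 and 1.77 CPM with berberine, and Reg3g at 20.7, 46.3 and 9.07 CPM against 47.6, 2.01 and 1.46 CPM. With 5-Fu+BBR replicate 1 alone, free of the high kidney transcripts, the log2 fold change of Saa3 was -2.33, that of Lcn2 -2.01 and that of Saa2 -1.0. Without that replicate they were -4.41, -4.18 and -2.32, and Saa3 passed with edgeR (adjusted p = 0.0228). All 3 passed with DESeq2 (adjusted p = 0.000768, 0.0299 and 0.0473). In bulk tissue these transcripts need not come from epithelium alone. Of 9 neutrophil genes tested, 8 also had a negative log2 fold change, and the part of neutrophil content in these levels was not tested.

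**Figure D2:**
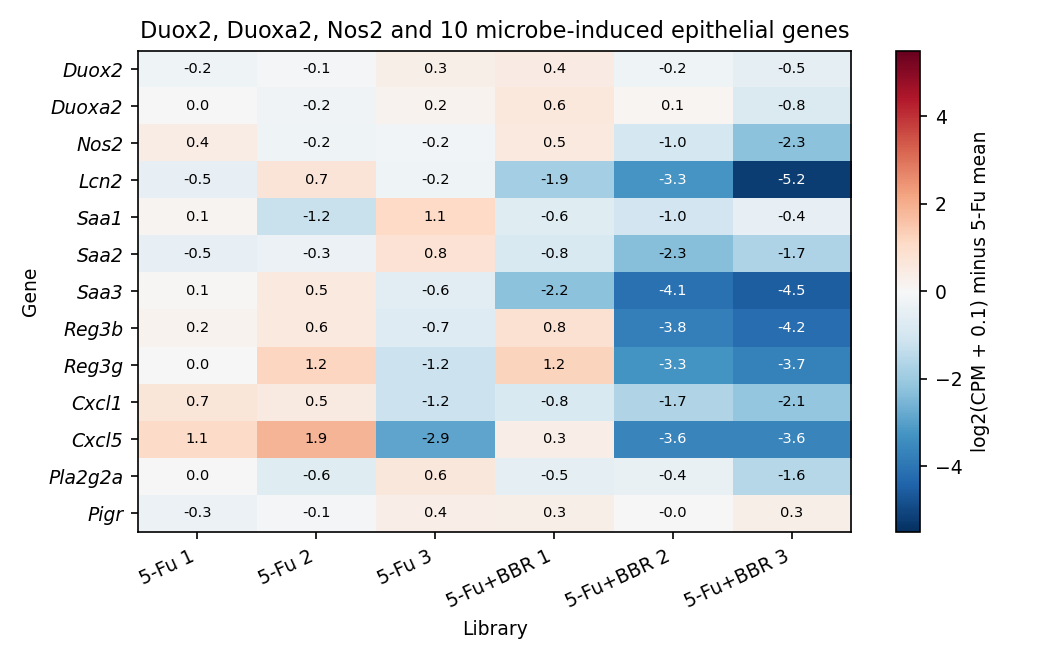
Heat map of log2(CPM + 0.1) minus the mean of 5-Fu for Duox2, Duoxa2, Nos2 and 10 microbe-induced epithelial genes (rows) in the 6 libraries (columns), with values printed in the cells. Lcn2, Saa2 and Saa3 were below the range of 5-Fu in all 3 libraries of 5-Fu+BBR, whereas Duox2, Duoxa2 and Nos2 were above it in replicate 1 and below it in replicate 3.

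Cybb, the catalytic subunit of the phagocyte oxidase (ENSMUSG00000015340, chromosome X, 9435252 to 9487771, minus strand), was at 20.8, 27.3 and 23.5 CPM with 5-Fu alone and at 48.7, 48.3 and 36.8 CPM with berberine. Every library of 5-Fu+BBR lay above every library of 5-Fu. The mean was 23.9 ± 3.29 against 44.6 ± 6.74 CPM, 1.87-fold higher (log2 fold change 0.90 ± 0.16, adjusted p = 0.091). Ncf1, the p47phox organizer of that oxidase (ENSMUSG00000015950, chromosome 5, 134220053 to 134229625, minus strand), was at 8.45, 17.9 and 11.3 CPM against 27.7, 29.1 and 25.9 CPM. The groups again did not overlap, with means of 12.5 ± 4.85 and 27.6 ± 1.57 CPM (2.2-fold, log2 fold change 1.14 ± 0.26, adjusted p = 0.132). Both missed the threshold with edgeR and passed it with DESeq2 (adjusted p = 0.000204 and 0.00232). Without 5-Fu replicate 2, the library with the highest Ncf1 of its group, Ncf1 passed with edgeR too (log2 fold change 1.49, adjusted p = 0.032). With 5-Fu+BBR replicate 1 alone, which lacks the high kidney transcripts, the log2 fold changes were 1.02 and 1.13.

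The 250 bases before the RefSeq start sites of Cybb and Ncf1 are shown because these members were higher together. They lie at chrX:9469325-9469574 and chr5:134229626-134229875 of GRCm38.p6, both on the minus strand, and capitals mark the interferon response motif on either strand, which is GAAA and GAAA with any 2 bases between them.
Cybb: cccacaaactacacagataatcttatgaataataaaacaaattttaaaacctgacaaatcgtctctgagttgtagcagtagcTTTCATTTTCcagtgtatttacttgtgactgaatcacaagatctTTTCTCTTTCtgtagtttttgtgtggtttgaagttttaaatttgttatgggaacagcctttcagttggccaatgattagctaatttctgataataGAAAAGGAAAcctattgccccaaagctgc
Ncf1: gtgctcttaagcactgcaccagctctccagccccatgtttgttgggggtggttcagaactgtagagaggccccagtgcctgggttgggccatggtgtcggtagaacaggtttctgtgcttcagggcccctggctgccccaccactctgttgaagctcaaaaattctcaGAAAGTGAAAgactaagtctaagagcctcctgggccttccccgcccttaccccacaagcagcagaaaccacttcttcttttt

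Promoter windows were found in RefSeq for 9 of the 10 members, and 5 motifs were searched on both strands: TATAAA, the NF-kB motif, GAGGAA (a core of sites for PU.1-type factors), the interferon response motif and TTCNNNGAA (STAT sites). Cybb and Ncf1 were the only members of the 9 with the interferon response motif, which 3.04% of 27025 windows held. Cybb had 3 matches and Ncf1 had 1, whose first 3 bases are also the last of a TTCNNNGAA match. GAGGAA was found in Nox1 only, against 23.1% of all windows, TTCNNNGAA also in Nox4, against 7.18%, and the NF-kB motif in Nox1 and Noxa1, against 7.01%. Matches are letters in these windows and describe neither binding nor a cause.

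**Figure D3:**
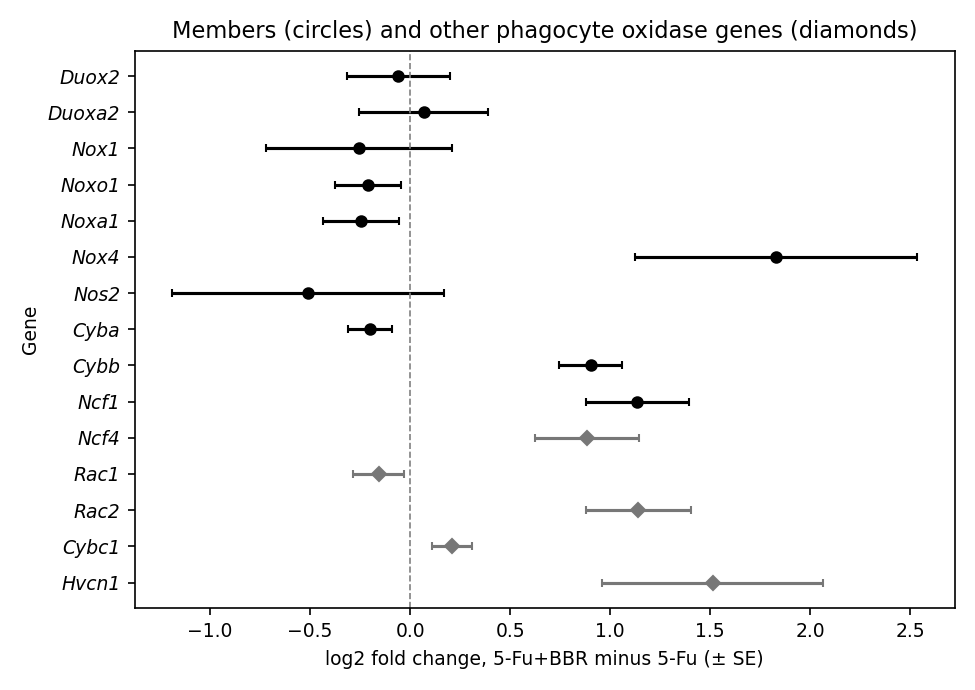
Log2 fold change, 5-Fu+BBR minus 5-Fu, with its standard error for the 10 members (circles) and 5 further genes of the phagocyte oxidase (diamonds). Cybb, Ncf1, Ncf4, Rac2 and Hvcn1 lie to the right of 0, near or above 0.88, while Cyba lies slightly to its left.

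Cyba, which encodes the p22phox subunit that CYBB, NOX1 and NOX4 share (ENSMUSG00000006519, chromosome 8, 122424776 to 122432930, minus strand), did not go with Cybb. It was at 92.2, 84.0 and 74.4 CPM with 5-Fu alone and at 74.6, 69.3 and 74.1 CPM with berberine (log2 fold change -0.20 ± 0.11, adjusted p = 0.416). The libraries of 5-Fu+BBR were close to or below the lowest library of 5-Fu. The ratio of Cyba to Cybb in FPKM was 24.8, 17.2 and 17.7 in 5-Fu and 8.57, 8.03 and 11.2 in 5-Fu+BBR, without overlap. The ratio of Ncf1 to Cybb stayed between 0.640 and 1.12.

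Other genes of the family and of the phagocyte complex were taken from a list of 11, of which 10 were tested and 0 passed. At an unadjusted p under 0.05, 3 were higher and 0 lower, against 9.48% and 6.08% of all genes tested. The list's median log2 fold change was 0.11, and 4 of its genes were higher without overlap, against 12.3% of all genes tested. Rac2, the blood cell GTPase that activates the phagocyte oxidase, was at 16.8, 36.8 and 23.6 CPM with 5-Fu alone and at 56.8, 60.2 and 53.4 CPM with berberine (log2 fold change 1.14 ± 0.26, adjusted p = 0.145). Ncf4, which encodes the p40phox subunit, was at 8.75, 15.0 and 7.35 CPM against 18.5, 20.01 and 19.0 CPM (log2 fold change 0.88 ± 0.26, adjusted p = 0.188). Hvcn1, a proton channel that balances the charge moved by the oxidase, was at 3.66, 18.1 and 7.19 CPM against 25.4, 26.2 and 31.1 CPM (log2 fold change 1.51 ± 0.55, adjusted p = 0.278). In these 3 genes, as in Ncf1, no library of 5-Fu+BBR overlapped 5-Fu, and 5-Fu replicate 2 was the highest of its group. Rac2, Ncf4 and Hvcn1 passed with DESeq2 (adjusted p = 0.0019, 0.0329 and 0.0222) and, without 5-Fu replicate 2, with edgeR (adjusted p = 0.0307, 0.0349 and 0.0354), where their log2 fold changes were 1.49, 1.25 and 2.35.

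Cells that carry the phagocyte oxidase were examined through their markers. Of 12 macrophage and monocyte genes, 11 had a positive log2 fold change, against 50.7% of all genes tested, 5 were higher at an unadjusted p under 0.05, against 9.48%, and 0 passed (median 0.35). The same shares of all genes stand behind the B cell and smooth muscle counts. The summed level of the macrophage and monocyte genes ran from 611 to 760 CPM with 5-Fu alone and from 800.4 to 1028 CPM with berberine. All 6 B cell genes had a positive log2 fold change, 5 with an unadjusted p under 0.05 and 0 passing (median 1.61). The sum of the B cell genes was 30.7, 170.1 and 71.1 CPM in 5-Fu and 232, 321 and 278 CPM in 5-Fu+BBR, again highest in replicate 2 among the libraries of 5-Fu. Of 10 neutrophil genes 9 were tested, of which 8 had a negative log2 fold change, 3 were lower at an unadjusted p under 0.05, against 6.08% of all genes, and 0 passed. Ly6g, at 244 to 436 CPM, made up most of their sum. The other 9 summed to 80.4, 63.6 and 7.78 CPM with 5-Fu alone and to 23.3, 3.55 and 3.08 CPM with berberine, which overlap, with Camp at 0 in all 3 of the latter. Cybb relative to Csf1r, a receptor of macrophages, was 0.642, 0.756 and 0.719 in 5-Fu and 0.917, 0.821 and 0.703 in 5-Fu+BBR, which overlap. Relative to Adgre1, another macrophage marker, it was 2.77, 3.41 and 2.81 against 6.37, 5.20 and 5.14, which do not. Smooth muscle genes were also higher, with 6 of 6 at an unadjusted p under 0.05 and sums of 2199 to 2864 CPM against 4086 to 4655 CPM. The part of macrophage, B cell and muscle content in the levels of Cybb and Ncf1 was not tested.

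**Figure D4:**
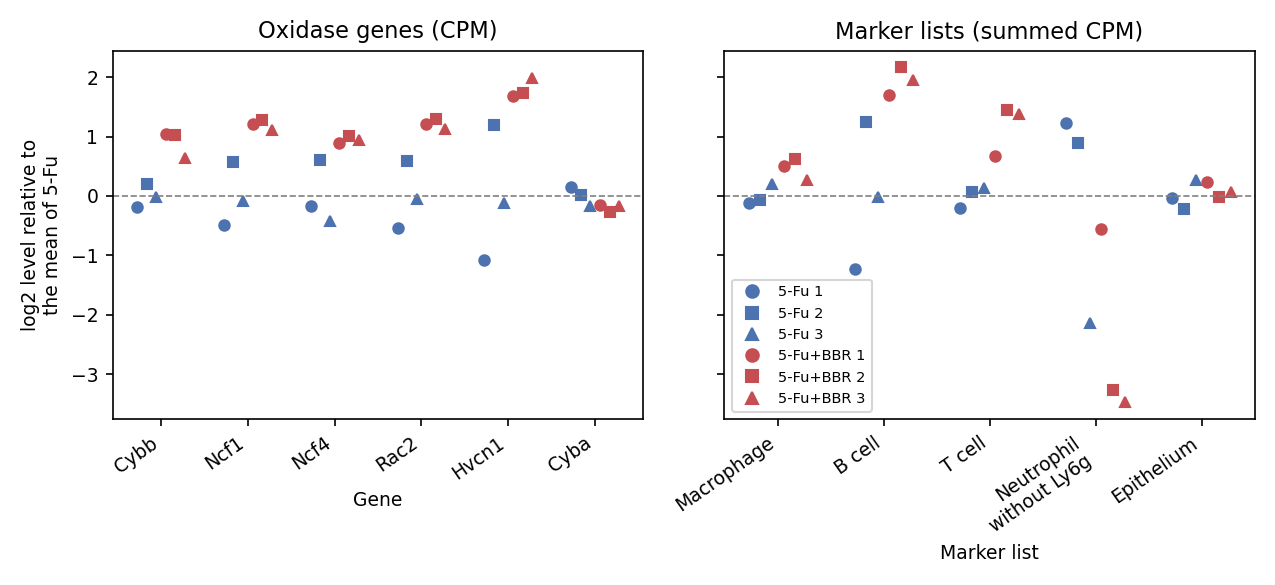
Log2 level relative to the mean of 5-Fu in each library, for phagocyte oxidase genes (left, CPM) and for summed CPM of marker lists (right). The 3 libraries of 5-Fu+BBR lie above those of 5-Fu for Cybb, Ncf1, Ncf4, Rac2 and Hvcn1 and for macrophage, B cell and T cell markers, but not for Cyba or epithelial markers.

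Epithelial and phagocyte oxidases were then set against each other within each library. The summed FPKM of Duox2, Duoxa2, Nox1, Noxo1 and Noxa1 exceeded that of Cybb, Cyba and Ncf1 in 6 of 6 libraries. The log2 ratio was 0.96, 1.14 and 1.39 in 5-Fu and 1.47, 1.06 and 0.72 in 5-Fu+BBR, with a difference of the means of -0.08 and overlapping groups. Cyba makes up most of the phagocyte sum. Without it the log2 ratio was 4.97, 4.38 and 4.86 in 5-Fu and 3.93, 3.41 and 3.38 in 5-Fu+BBR, without overlap. The phagocyte sum then held only Cybb and Ncf1, each already seen to separate the groups, so this ratio is not a separate result. Nox1 relative to Cybb in FPKM was 3.15, 5.16 and 1.61 in 5-Fu and 1.62, 1.39 and 1.60 in 5-Fu+BBR, where 5-Fu replicate 3 met the range of the other group.

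Nox4 (ENSMUSG00000030562, chromosome 7, 87246096 to 87398710, plus strand) was at 0.793, 0.551 and 0.236 CPM with 5-Fu alone and at 0.473, 2.26 and 2.92 CPM with berberine. These levels rest on 44, 37 and 12 and on 28, 125 and 162 estimated counts, and 1 sequenced fragment can be worth about 4 of them. Replicates 2 and 3 of 5-Fu+BBR were high and replicate 1 lay within the range of 5-Fu (log2 fold change 1.83 ± 0.70, adjusted p = 0.277). The high libraries were the same 2 in which kidney genes were high. All 9 kidney genes tested had positive log2 fold changes, against 50.7% of all genes tested. Of them 8 had an unadjusted p under 0.05, against 9.48% of all genes that had it and were higher. With 5-Fu+BBR replicate 1 alone the log2 fold change of Nox4 was -0.17. Kidney RNA and treatment cannot be told apart in the other 2 libraries.

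**Figure D5:**
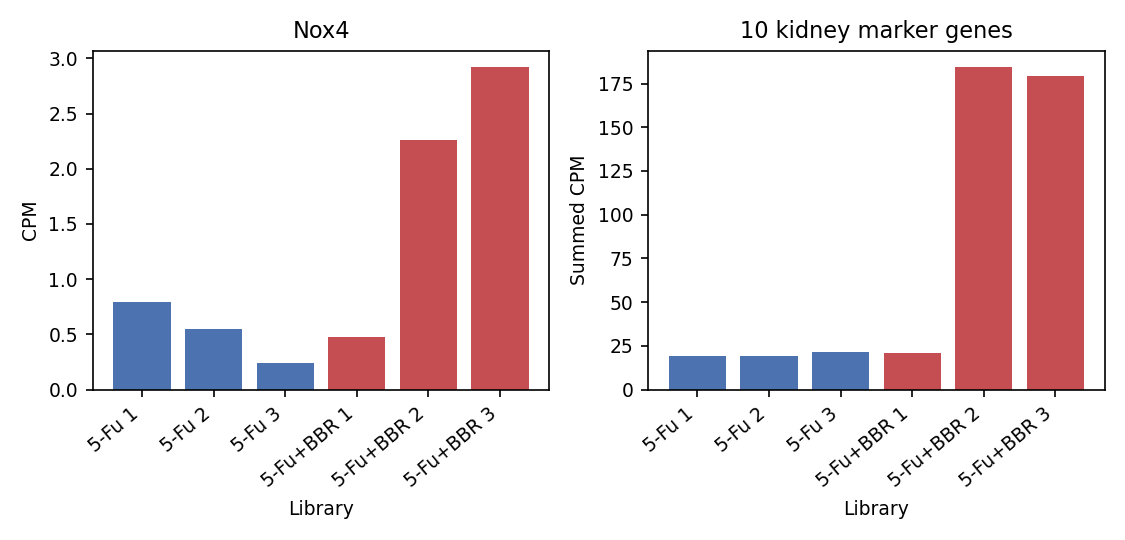
Nox4 in CPM (left) and the summed CPM of 10 kidney marker genes (right) in each library, as bars from 0. Both are high only in 5-Fu+BBR replicates 2 and 3.

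The supply of nitric oxide and its inhibitors was followed in 12 genes of arginine, tetrahydrobiopterin and nitric oxide metabolism, all tested. Of these 0 passed, 0 were higher and 3 were lower at an unadjusted p under 0.05, against 6.08% of all genes tested that were lower (median log2 fold change -0.15). Ddah1, which breaks down methylated arginines that inhibit nitric oxide synthases, was at 48.3, 58.1 and 47.7 CPM with 5-Fu alone and at 34.2, 28.7 and 11.2 CPM with berberine (log2 fold change -1.06 ± 0.39, adjusted p = 0.273, and 0.0375 with DESeq2). Spr, the enzyme of the last step of tetrahydrobiopterin synthesis, was at 54.9, 44.7 and 54.04 CPM against 41.2, 40.6 and 42.9 CPM (log2 fold change -0.30 ± 0.11, adjusted p = 0.266). Gchfr, a feedback regulator of the first enzyme of that synthesis, was at 3.91, 4.06 and 4.81 CPM against 2.44, 2.93 and 1.34 CPM (log2 fold change -0.93 ± 0.33, adjusted p = 0.245). For each of the 3 the groups did not overlap, against 9.68% of all genes that were lower without overlap. Nos2, in the same pathway, did overlap. Relative to the mean of 5-Fu, the log2 level of Ddah1 was -0.58 in 5-Fu+BBR replicate 1. It was -0.83 and -2.18 in replicates 2 and 3, those with high kidney transcripts.

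Among 14 genes that remove superoxide and peroxides, 0 passed, and at an unadjusted p under 0.05 1 was higher and 2 were lower (median log2 fold change -0.17). Over all genes tested 15.6% had such a p in either direction, so these 3 of 14 are near the background. Cat, the peroxisomal catalase, was at 42.1, 51.8 and 60.5 CPM with 5-Fu alone and at 66.6, 67.5 and 81.5 CPM with berberine (log2 fold change 0.48 ± 0.15, adjusted p = 0.209). The cytosolic peroxiredoxins Prdx2 and Prdx1 had log2 fold changes of -0.38 ± 0.11 and -0.41 ± 0.16 (adjusted p = 0.188 and 0.282). Of 4 peroxidases that use hydrogen peroxide to oxidise other substrates, 2 were tested. Lpo, lactoperoxidase, was at 479, 389 and 600.3 CPM with 5-Fu alone and at 966, 814 and 679 CPM with berberine, without overlap (log2 fold change 0.74 ± 0.20, adjusted p = 0.162, and 0.0137 with DESeq2). Mpo, the neutrophil peroxidase, was at most 0.715 CPM in any library (log2 fold change -1.04 ± 1.19, adjusted p = 0.72).

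Cytokines that induce Nos2, Duox2 and Cybb, with their receptors and transcription factors, made up a list of 14 genes. Of these 11 were tested and 0 passed. At an unadjusted p under 0.05, 1 was higher and 1 lower, near the 9.48% and 6.08% of all genes tested. Stat3, which carries signals of interleukin 6 and interleukin 22, was at 223, 201 and 192 CPM with 5-Fu alone and at 187, 147 and 138 CPM with berberine, without overlap (log2 fold change -0.39 ± 0.14, adjusted p = 0.258). Relative to the mean of 5-Fu, its log2 level was -0.13 in 5-Fu+BBR replicate 1. In replicates 2 and 3, those with high kidney transcripts, it was -0.48 and -0.57. The log2 fold change of Stat3 ran from -0.53 to -0.15 over the 17 alternatives. Il17a was at most 1.18 CPM in any library (log2 fold change -2.11 ± 1.23, adjusted p = 0.461), and without 5-Fu replicate 2, the library with that level, the log2 fold change was -0.72.

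The genes most like 4 of the members over the 6 libraries were found among 13504 named protein-coding genes whose average reached 1 CPM, by Pearson's r of log2 CPM. The values are a description of 6 libraries that fall into 2 treatment groups. Cybb was most like H2-T22, Sp140 and Nfkbie (r from 0.996 to 0.998), all higher in each library of 5-Fu+BBR than in any of 5-Fu. Duox2 was most like Prkx, Zfp646 and Ecsit (r from 0.984 to 0.990), Nox1 most like Ncmap and R3hdml among those reported here (r of 0.991 and 0.990), and Nos2 most like Zfp35, Etaa1 and Smarcb1 (r from 0.981 to 0.990). With 6 libraries such values are common: 92 genes had an r above 0.9 with Duox2 and 498 with Cybb.

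Gene models of 6 members overlap another gene. On the opposite strand the overlap was 20528 bases for Nox1 and Arl13a and 399 for Nox1 and Cstf2, 8155 for Cyba and Gm20388, the whole length of the Cyba model, 4303 for Ncf1 and Gtf2ird2, 2581 for Noxo1 and Tbl3, 695 for Duoxa2 and Duoxa1, and 50 for Noxa1 and Entpd8. Nox1 also overlaps Xkrx on the same strand by 13034 bases, which strand cannot resolve. The libraries marked strand, but no source used here says whether the counting used it, so values of these members may hold reads of their neighbours.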

How the data were processed

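The authors' deposited table gives estimated counts, written as whole numbers, and FPKM per gene and library. Per the labels' protocols, polyadenylated RNA was sequenced as strand-marked paired reads with molecular identifiers. The submitters' processing notes name, without their roles, StringTie 1.3.4d, HISAT2 2.0.4, cutadapt 1.9 and UMI-tools, the packages edgeR and DESeq2, and GRCm38. No source used here names the annotation version. All 10 members have the same coordinates in GENCODE M21.

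Counts were used as deposited. Genes were filtered with filterByExpr, scaled with TMM, then compared by the quasi-likelihood test of edgeR 4.0.16, robust, under R 4.3.3 (two-sided, Benjamini-Hochberg adjustment over 20101 genes, no covariates), which was tested on simulated data. Alternatives used DESeq2 1.42.0 and limma 3.58.1, with figures from matplotlib 3.10.9. Low estimated counts peaked at 4 (5414 values), with 1 nearly as frequent (5153 values). Thus 1 fragment can be worth about 4 counts, though this unit is uncertain, and low counts look too precise. Chi-square values between libraries found no pair within sampling noise.

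The members, lists and named-gene rule (all members, genes of a list that passed, and up to 3 per list by smallest p) were chosen with earlier results of these data known. A few genes that this rule names are not reported here.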

Additional observations from a re-analysis of the deposited data

How the results depend on the processing

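Estimates from 3 libraries a group limit precision, and low estimated counts such as those of Nox4, Mpo and Il17a limit it further. Of all genes tested, 15 passed; 113 passed with a replicate block, 77 with no filter, 1226 with DESeq2, 8 with limma-trend on log2(FPKM + 1), 0 with 5-Fu+BBR replicate 1 alone, an alternative chosen after seeing the data, and 0 to 159 on leaving out each library, with 0 without 5-Fu replicate 1 or 5-Fu+BBR replicate 2 and 159 without 5-Fu replicate 2. Of the members, 0 passed, 2 with DESeq2 (Cybb and Ncf1) and 0 to 1 on leaving out each library, the 1 being Ncf1 without 5-Fu replicate 2. Members at an unadjusted p under 0.05 numbered 3, and 2 to 5 on leaving out each library, with 5 without 5-Fu+BBR replicate 1, which added Noxo1 and Nos2.

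Whether the replicate numbers pair the samples is not stated in the labels, and 3 samples a group are too few to settle it. Deviations of same-numbered samples correlated at 0.0658, 0.0277 and 0.18 over 15793 genes. Those of samples with different numbers correlated at -0.194 to 0.15. Not every sample correlated best with its own number. With the replicate block the log2 fold change of Cybb was 0.90 (adjusted p = 0.0605 by edgeR), that of Ncf1 1.20 (adjusted p = 0.0681) and that of Duoxa2 -0.023. Cybb and Ncf1 were higher with berberine under all 17 alternatives run.

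Leaving out each library moved the log2 fold change of Duox2 between -0.36 and 0.14, Duoxa2 between -0.28 and 0.36, Nox1 between -0.59 and 0.41, Noxa1 between -0.39 and 0.0041, Mpo between -1.61 and 0.49, and Il17a between -3.24 and -0.72. With 5-Fu+BBR replicate 1 alone it was 0.40 for Duox2, 0.10 for Noxo1, -0.17 for Nox4 and 0.47 for Nos2. Duoxa2 was at -0.031 with limma-voom, -0.024 with limma-trend on log2(FPKM + 1) and -0.027 on log2(FPKM + 0.1), and Mpo at 0.32 with limma-voom. The difference in log2 ratio of epithelial to phagocyte oxidases was -0.08, and -0.27 to 0.10 on leaving out each library, -1.16 without Cyba and -0.62 as a difference of mean log2(FPKM + 1). The cause was not tested.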
